A study of Mus musculus with 6 samples.

Results

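The 9 genes described here carry the signal from the insulin and IGF receptors to the nucleus. They are the receptors *Insr* and *Igf1r*, the docking proteins *Irs1* and *Irs2*, the PI3K regulatory subunit *Pik3r1*, the kinases *Akt1* and *Akt2* and the transcription factors *Foxo1* and *Foxo3*. They were chosen by gene name, and all 9 were found among the 55060 genes listed. RNA-seq was performed on islets of mice at 12 weeks of age, with 3 Ctrl and 3 cKO samples. The cKO mice were *Ins2-cre; Parn f/f*, in which Cre recombinase driven by the *Ins2* promoter removes the floxed exon 7 of *Parn*, the gene of a poly(A)-specific ribonuclease, in β cells. The Ctrl mice were *Parn f/f* animals and other littermates, and which of these genotypes, and whether Cre, each Ctrl sample carried was not stated. The sex of the animals and any pooling of islets from several animals were not stated either. No agent was given to either group according to the labels. The promoter can also be active in neurons of the hypothalamus, and isolated islets hold α, δ, PP, endothelial and other cells in which *Parn* is not deleted.

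Insulin or IGF1 binding switches on the tyrosine kinase of its receptor, and the receptor phosphorylates the IRS docking proteins. These recruit PI3K, whose lipid product brings Akt to the membrane, where Akt is phosphorylated and activated. Active Akt phosphorylates FoxO factors, which then leave the nucleus and stop driving their targets. In β cells this route is known for its part in growth, survival and the maintenance of β-cell mass, and *Irs2* is the docking protein most tied to that role. Most of this control is by phosphorylation, which RNA-seq does not measure, so the values below are mRNA levels only.

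The levels are FPKM, fragments scaled by gene length and by a factor per library, so levels of different genes can be set side by side. The library scaling was of the median-of-ratios type, not to the total of reads on genes. For the 9 genes the length equals that of the annotated exons of all transcripts joined, not that of the transcripts expressed. Small gaps in level between genes are therefore uncertain. The reads behind each value could be read back from the FPKM steps, and the reads on genes summed to 16289411 to 17944775 per sample. *Ins1* and *Ins2* took 26.5% to 30.1% of them in Ctrl and 22.0% to 24.6% in cKO. *Parn* FPKM was 6.64, 8.34 and 7.38 in Ctrl and 4.97, 4.61 and 6.15 in cKO. The cKO samples were all below the Ctrl samples, with a log2 difference of -0.44 (SE 0.131, limma adjusted p = 0.545). Ctrl replicate 1 stood apart from the other samples. The summed FPKM of 7 leukocyte markers was 597 in it and 31.4 to 70.2 in the other 5 samples, and 984 genes (4.64% of those tested) had more than 2 times the level of every other sample in it, against 169 to 290 genes in the others. The leukocyte marker *Itgam* was at 0 in cKO replicate 1. The labelled tissue had its markers, since the 9 β-cell markers summed to at least 195134 FPKM in every sample. Acinar markers were also present, with sums of 7019 to 19156 FPKM in Ctrl and 8708 to 31845 in cKO.

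The genotypes were compared by limma on log2(FPKM + 1) over the 21211 genes whose mean FPKM was 0.1 or more, which included all 9. The differences given below are on this scale, cKO minus Ctrl, on which the change of genes at low FPKM comes out too small. After Benjamini-Hochberg adjustment no gene passed 0.05 with limma, the smallest adjusted p was 0.274 (0.142 with limma voom on the reads read back), and 1570 genes (7.4%) had an unadjusted p under 0.05. The unadjusted threshold of 0.05 is therefore used for counts, and a gene that passes it alone is not a discovery at a controlled false discovery rate. An exact permutation test of 3 samples against 3 cannot give a two-sided p below 0.1.

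Of the 9 genes, 1 was higher in cKO at this threshold and 0 were lower, beside 4.33% of all genes tested that were higher and 3.07% that were lower. The gene was *Akt1*, and it was also the 1 gene of the 9 whose samples did not overlap between the genotypes, where 7.11% of all genes tested were higher without overlap and 6.03% lower. As a share, 1 of 9 is 11.1%, which rests on a single gene. Over all genes, 58.5% of the calls were higher, or 78.8% when FPKM was rescaled to the reads on genes. The median difference of the 9 genes was -0.10, and 6 of them were negative, whereas the median over all genes tested was -0.01 with 11355 of 21211 negative. Under that rescaling *Insr* turned positive, at 0.013.

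**Figure D1:**
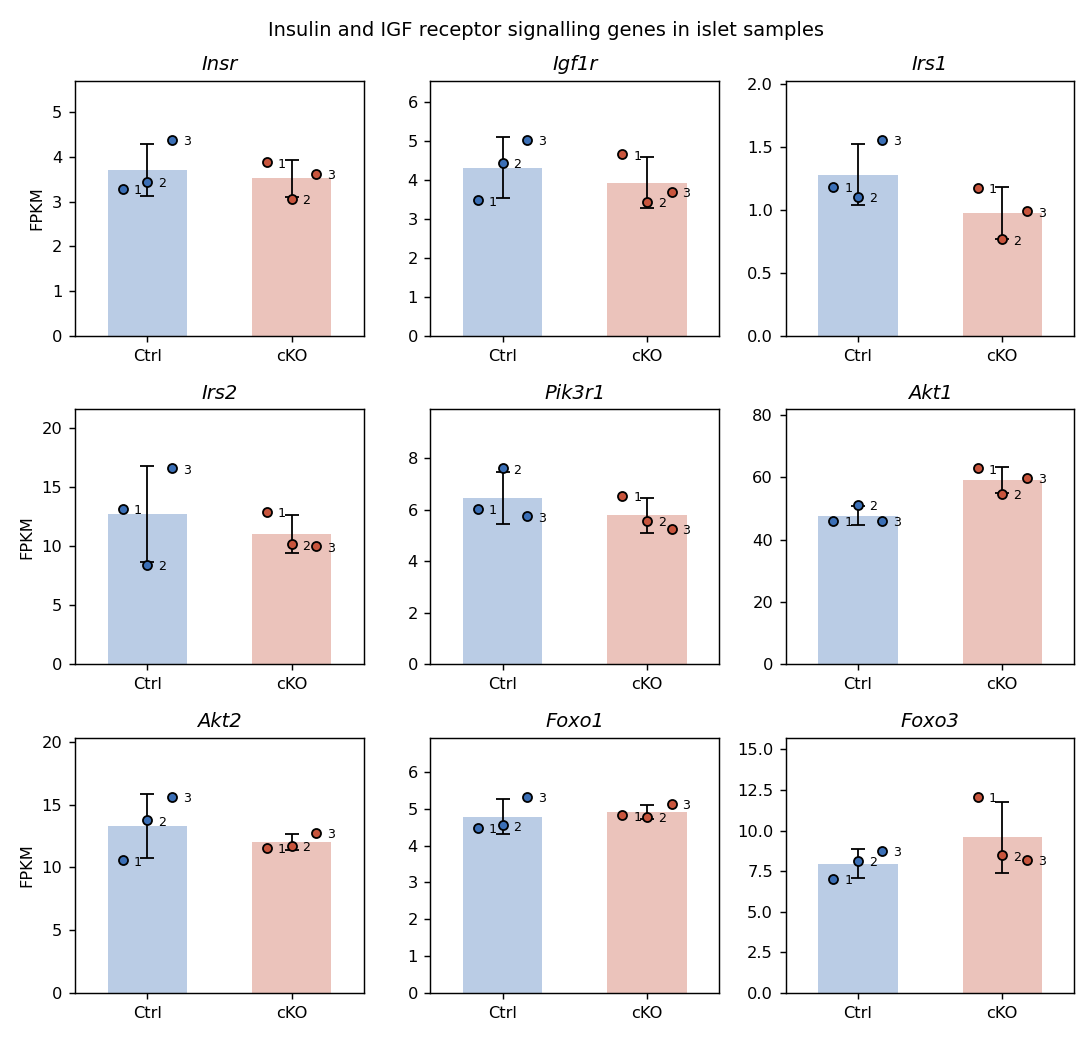
FPKM (y axis, from 0, with a scale of its own in each panel) of the 9 genes in the Ctrl and cKO islets, with a numbered point per sample, a bar at the group mean and whiskers of 1 SD (n = 3 per group). *Akt1* lies between 46.0 and 62.9, *Irs1* at 0.767 to 1.56, and the points of Ctrl and cKO separate in *Akt1* alone.

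*Akt1* had by far the highest level, with a mean over the 6 samples of 53.4 FPKM, which placed it at the 97.2 percentile of the genes tested. *Akt2* followed at 12.7, *Irs2* at 11.9, *Foxo3* at 8.77, *Pik3r1* at 6.13, *Foxo1* at 4.85, *Igf1r* at 4.13 and *Insr* at 3.62, and *Irs1* was lowest at 1.13 FPKM, at the 39.1 percentile. The longest coding transcript has 21 exons in *Insr* and *Igf1r*, 16 in *Pik3r1*, 14 in *Akt1* and *Akt2*, 4 in *Foxo3*, 3 in *Foxo1* and 2 in *Irs1* and *Irs2*. Among neighbours in the order of levels, *Akt1* and *Akt2* had ranges that did not touch (ratio 4.21), and so did *Insr* and *Irs1* (ratio 3.20). The ranges of all other neighbours overlapped. *Akt2* was above *Irs2* in 3 of 6 samples, so their order is not set, while each of the other neighbours kept its order within all 6 samples.

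*Insr* (ENSMUSG00000005534, GRCm38 chromosome 8, 3122061 to 3279617, minus strand) encodes the insulin receptor. Its FPKM was 3.29, 3.45 and 4.38 in Ctrl and 3.88, 3.06 and 3.63 in cKO, and the groups overlapped throughout. The difference was -0.06 (SE 0.133, 95% interval -0.37 to 0.26, limma adjusted p = 0.949). *Igf1r* (ENSMUSG00000005533, chromosome 7, 67952827 to 68233668, plus strand) encodes the receptor of IGF1. It had 3.47, 4.44 and 5.03 FPKM in Ctrl and 4.66, 3.44 and 3.70 in cKO, again overlapping, with Ctrl replicate 1 low among the Ctrl samples. Its difference was -0.10 (SE 0.155, 95% interval -0.48 to 0.27, limma adjusted p = 0.905), and without Ctrl replicate 1 it was -0.22. The ratio of *Insr* to *Igf1r* within a sample, which does not depend on library scaling, was 0.776 to 0.980 over the 6 samples. *Igf1r* thus had the higher FPKM of the pair in each sample. The ratio averaged 0.865 ± 0.0860 (SD, n = 3) in Ctrl islets and 0.901 ± 0.0751 (SD, n = 3) in cKO, with an exact permutation p of 0.6.

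The receptor with the highest level in islets was neither of these. *Insrr*, the insulin receptor-related receptor, is a close relative that does not bind insulin or the IGFs and is known as a sensor of alkaline pH. Its FPKM was 67.7, 109 and 126 in Ctrl and 75.0, 53.2 and 57.2 in cKO. Ctrl replicates 2 and 3 were high, and Ctrl replicate 1 lay within the range of the cKO samples. The difference was -0.67 (SE 0.250, limma adjusted p = 0.636), and it was -0.93 without Ctrl replicate 1. It lost the unadjusted threshold without Ctrl replicate 2 or 3 or cKO replicate 2 or 3, and at its smallest was -0.48. *Igf2r*, which carries IGF2 and lysosomal enzymes to the lysosome rather than signalling through PI3K, moved the other way. It was at 9.27, 7.90 and 9.75 FPKM in Ctrl and 14.3, 11.3 and 12.4 in cKO, without overlap. The difference was 0.45 (SE 0.119, limma adjusted p = 0.481), and all 6 fits that left out 1 sample kept it past the unadjusted threshold. *Igf2r* overlaps the antisense RNA *Airn*, and whether the counting used the strand was not stated.

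*Irs1* (ENSMUSG00000055980, chromosome 1, 82233101 to 82291416, minus strand) and *Irs2* (ENSMUSG00000038894, chromosome 8, 10984681 to 11008458, minus strand) encode the docking proteins between receptor and PI3K. *Irs1* FPKM was 1.18, 1.11 and 1.56 in Ctrl and 1.18, 0.767 and 0.992 in cKO. The lowest values were in cKO replicates 2 and 3, while cKO replicate 1 lay among the Ctrl samples. The difference was -0.21 (SE 0.139, 95% interval -0.54 to 0.13, limma adjusted p = 0.820). These values rest on 122 to 237 reads, the fewest of the 9 genes, so counting alone gives up to 9.05% error. *Irs2* FPKM was 13.2, 8.43 and 16.6 in Ctrl and 12.9, 10.2 and 9.99 in cKO. The Ctrl samples enclosed all the cKO samples. *9530052E02Rik*, which overlaps *Irs2* on the opposite strand, was at a mean of 0.283 FPKM. *Irs2* was the most variable of the 9 genes among Ctrl samples, with a coefficient of variation of 32.2% in Ctrl and 14.8% in cKO, against a counting error of at most 3.45%. Its difference was -0.15 (SE 0.234, 95% interval -0.72 to 0.41, limma adjusted p = 0.909), and it ran from -0.40 without Ctrl replicate 2 to 0.05 without Ctrl replicate 3. This interval spans both a lower and a higher level in cKO.

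*Irs2* exceeded *Irs1* in every sample, by 7.63 to 13.3 times. The ratio was 9.80 ± 1.89 (SD, n = 3) in Ctrl islets and 11.4 ± 1.64 (SD, n = 3) in cKO, and its exact permutation p was 0.5. *Irs4*, the other family member on the list, was at or below 0.0707 FPKM in every sample and below the minimum level for testing.

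The DNA core bound by FoxO factors is TGTTTAC, and TGTTTTG is a form of it known from insulin response elements. Both contain the shorter TGTTT. All 3 were searched on both strands in windows from 250 bases before to 50 after the RefSeq start sites (GRCm38.p6), because the 9 genes include both FoxO factors and possible FoxO targets. A promoter was found for 8 of the 9 genes, with 13 start sites in all, and for *Insr* none was found. TGTTTAC was in 1 of the 13 windows and in 3.65% of the 32851 windows of all genes. TGTTTTG was in 2 of the 13 and in 6.28% of all, and TGTTT in 7 of the 13 and in 50.5% of all, so these short words are common. These windows show the *Akt1* match and the *Irs1* and *Irs2* matches from the minus strand of the genome, with TGTTTAC in capitals for *Akt1* and the core TGTTT in capitals for the others. They lie at chr12:112675028-112675056, chr1:82291535-82291561, chr1:82291456-82291482 and chr8:11008951-11008977, upstream of the annotated gene, and the motif begins 161, 111, 32 and 37 bases before the start site.
Akt1: atctaccctctTGTTTACactcctggtga
Irs1, distal: gctccgtcacgTGTTTtgctcctctgg
Irs1, proximal: cagccgccgctTGTTTtggttggggct
Irs2: gagtcacgtgtTGTTTtgctcttagtt
In each of the *Irs1* and *Irs2* lines the core is followed by tg, which completes TGTTTTG. A match describes the letters and does not show that a factor binds there.

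*Pik3r1* (ENSMUSG00000041417, chromosome 13, 101680563 to 101768217, minus strand) encodes the p85α regulatory subunit that joins PI3K to phosphorylated IRS proteins. Its FPKM was 6.03, 7.61 and 5.75 in Ctrl and 6.55, 5.58 and 5.26 in cKO. The highest value was in Ctrl replicate 2 and the groups overlapped. The difference was -0.13 (SE 0.132, 95% interval -0.45 to 0.18, limma adjusted p = 0.850). Of the 8 PI3K subunits on the list, 0 passed the threshold, beside 7.4% of all genes tested in either direction. The difference was negative in 7 of 8, and in 11355 of the 21211 genes tested. The subunit with the highest level was *Pik3r2* (p85β), at 14.4 ± 2.71 FPKM (SD, n = 3) in Ctrl islets and 13.1 ± 0.627 (SD, n = 3) in cKO, above *Pik3r1* in both genotypes.

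*Akt1* (ENSMUSG00000001729, chromosome 12, 112653821 to 112674884, minus strand) encodes the Akt isoform tied to growth and survival, and *Akt2* (ENSMUSG00000004056, chromosome 7, 27591552 to 27640826, plus strand) the isoform tied to glucose handling. *Akt1* FPKM was 46.0, 51.1 and 46.1 in Ctrl and 62.9, 54.7 and 59.8 in cKO. Every cKO sample lay above every Ctrl sample, with Ctrl replicate 2 and cKO replicate 2 nearest to each other. The means were 47.7 ± 2.94 (SD, n = 3) and 59.1 ± 4.10 (SD, n = 3), a ratio of 1.24. The difference was 0.30 (SE 0.0898, 95% interval 0.09 to 0.52), with an unadjusted limma p under 0.05 and an adjusted p of 0.545. The exact permutation p was 0.1, the smallest this design can give. The values rest on 3141 to 4526 reads, so counting error was at most 1.78%. The microRNA gene *Mir6939* lies within *Akt1* and was at a mean of 1.04 FPKM. The unadjusted p stayed under 0.05 in all 15 alternative fits, of which the median-of-ratios scaling could only repeat the main fit. In the 6 that left out 1 sample the difference was 0.26 to 0.36. Over the 15 alternatives the adjusted p ran from 0.324 to 0.925.

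*Akt2* FPKM was 10.6, 13.8 and 15.6 in Ctrl and 11.6, 11.7 and 12.8 in cKO. Ctrl replicate 1 was the lowest sample and Ctrl replicate 3 the highest, with the cKO samples between them. The difference was -0.12 (SE 0.142, 95% interval -0.46 to 0.22, limma adjusted p = 0.876). Leaving out Ctrl replicate 1 gave -0.27, past the unadjusted threshold, with a limma adjusted p of 0.407. The ratio of *Akt2* to *Akt1* was 0.230, 0.269 and 0.339 in Ctrl and 0.184, 0.214 and 0.214 in cKO. Every cKO sample had the lower ratio. The log2 ratio differed by -0.44, with an exact permutation p of 0.1, or 0.4 after Benjamini-Hochberg adjustment over the 4 ratios computed.

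**Figure D2:**
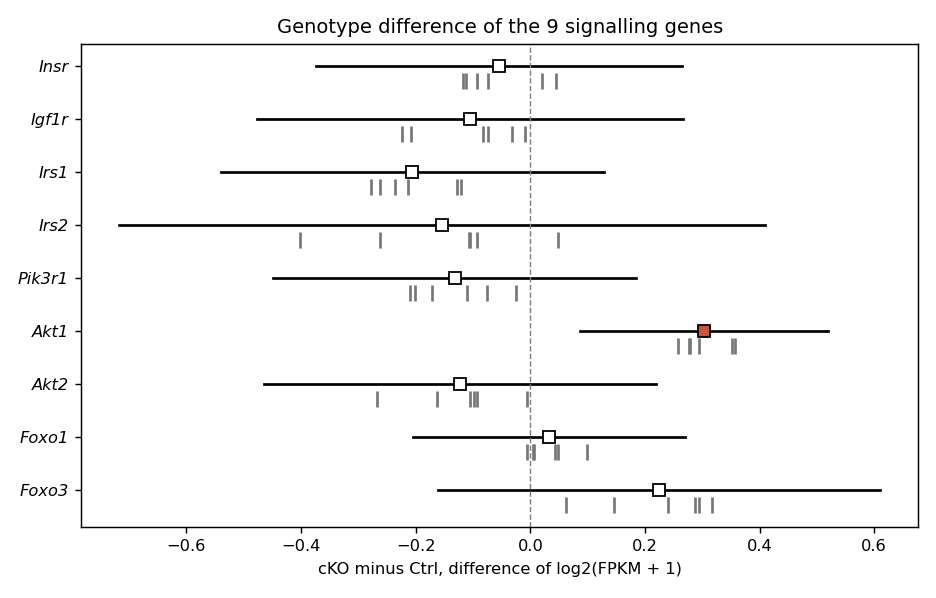
Difference of each of the 9 genes between genotypes, cKO minus Ctrl on the log2(FPKM + 1) scale (x axis), with a line for the 95% interval of the limma fit, grey ticks for the 6 fits that left out 1 sample each, and a filled square where the unadjusted p was under 0.05. *Akt1* at 0.30 (interval 0.09 to 0.52) is the 1 gene whose interval leaves out 0, and *Irs2* has the widest interval.

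Sums of some cell-type markers differed between the groups beside *Akt1*. The summed FPKM of 9 β-cell markers was 235639 to 275948 in Ctrl and 195134 to 217318 in cKO, and that of 6 endothelial markers 122 to 140 in Ctrl and 141 to 174 in cKO, both without overlap. Of the β-cell markers 0 were higher and 1 was lower at the unadjusted threshold, and of the endothelial markers 2 were higher and 0 lower. Over all genes tested, 4.33% were higher and 3.07% lower at this threshold. The β-cell sum is dominated by *Ins1* and *Ins2*, and these 2 did not behave alike. *Ins1* overlapped between the groups, with means of 69285 FPKM in Ctrl and 67455 in cKO, while *Ins2* was lower in cKO without overlap. Of the 9 β-cell markers, 2 were lower and 1 was higher in cKO without overlap. Of the 6 endothelial markers, 0 were lower and 3 were higher without overlap. Over all genes tested, 6.03% were lower and 7.11% higher in this way. Sums of 6 stromal markers were 7.96 to 15.9 in Ctrl and 13.3 to 39.7 in cKO, and those of 5 α-cell, 3 δ-cell and 8 acinar markers overlapped. No marker of these lists was at 0 in a sample. In bulk islets, a change in the number of cells of a type and a change in RNA per cell cannot be told apart, and the part of these markers in the *Akt1* difference was not tested.

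*Foxo1* (ENSMUSG00000044167, chromosome 3, 52268336 to 52353221, plus strand) encodes the FoxO factor best known in β cells, where it counters proliferation and restrains *Pdx1*. Its FPKM was 4.48, 4.56 and 5.33 in Ctrl and 4.82, 4.78 and 5.13 in cKO. All 3 cKO samples lay within the Ctrl range, and *Foxo1* had the smallest difference of the 9 genes, at 0.03 (SE 0.0988, 95% interval -0.20 to 0.27, limma adjusted p = 0.962). *Foxo3* (ENSMUSG00000048756, chromosome 10, 42181841 to 42276755, minus strand) encodes a related factor of stress resistance and cell death. It was at 7.02, 8.14 and 8.75 FPKM in Ctrl and 12.1, 8.47 and 8.19 in cKO. The mean was higher in cKO through 1 sample, cKO replicate 1, and the other 2 lay within the Ctrl range. The difference was 0.22 (SE 0.161, 95% interval -0.16 to 0.61, limma adjusted p = 0.820), and it was 0.06 without cKO replicate 1. The ratio of *Foxo1* to *Foxo3* was 0.602 ± 0.0395 (SD, n = 3) in Ctrl islets and 0.530 ± 0.117 (SD, n = 3) in cKO, with an exact permutation p of 0.5. *Foxo6* had the highest mean of the 4 FoxO genes over the 6 samples, at 9.53 FPKM, although *Foxo3* was above it in the cKO mean. *Foxo6* was at 10.3 ± 3.20 FPKM (SD, n = 3) in Ctrl islets and 8.79 ± 0.873 (SD, n = 3) in cKO, and 0 of the 4 passed the threshold.

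Of 20 textbook FoxO targets, 17 were tested, and 2 were higher in cKO and 0 lower at the unadjusted threshold, that is 11.8% against the 4.33% of all genes. Their median difference was 0.01, with 9 positive and 8 negative. Of the 17, 3 were higher and 1 was lower in cKO without overlap, beside 7.11% and 6.03% of all genes tested. The larger of the 2 past the threshold was *Cdkn1a*, which encodes the cell cycle inhibitor p21 and is also a target of p53. Its FPKM was 23.9, 5.40 and 8.61 in Ctrl and 46.7, 36.1 and 47.7 in cKO, without overlap, with Ctrl replicate 1 the highest of the Ctrl samples. The difference was 1.94 (SE 0.472, limma adjusted p = 0.454). In the fit without Ctrl replicate 1 it was 2.49 with a limma adjusted p of 0.0498, and over all alternatives the adjusted p ran up to 0.856. *Klf15*, a transcription factor of amino acid and glucose metabolism, was at 3.23 ± 0.515 FPKM (SD, n = 3) in Ctrl islets and 4.40 ± 0.371 (SD, n = 3) in cKO. Its difference of 0.36 (SE 0.127, limma adjusted p = 0.612) no longer passed the unadjusted threshold without Ctrl replicate 2 or cKO replicate 1 or 3, and at its smallest was 0.25. *Txnip*, the inhibitor of thioredoxin and the target with the highest level, was at 152, 159 and 148 FPKM in Ctrl and 231, 164 and 176 in cKO. Its groups did not overlap, but its difference of 0.30 (SE 0.146) did not pass the unadjusted threshold (limma adjusted p = 0.710).

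The remaining 60 tested genes of the pathway, of 62 on the list, gave 4 higher and 2 lower, or 6.67% and 3.33%, with a median difference of -0.03 and 25 positive against 35 negative. These shares were near those of all genes tested, 4.33% higher and 3.07% lower. The counts by role below stand beside the same shares. Besides the receptors *Igf2r* and *Insrr* described above, those past the threshold that are described here were *Igfbp5*, *Socs1* and *Tbc1d4*.

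Among ligands, *Ins2* had the highest level, with a mean of 168013 FPKM in Ctrl and 122054 in cKO, and its samples did not overlap. Its difference was -0.46, with an SE of 2.87 in this fit and a limma adjusted p of 0.982. The 6 samples together spanned 0.71 on the same scale, less than this SE. The fit therefore cannot decide whether *Ins2* differed, and its p is not evidence of equal levels. The exact permutation p was 0.1, the smallest this design can give. Of 7 tested IGF binding proteins, which hold IGFs outside the cell, 1 was higher and 0 were lower, beside 4.33% and 3.07% of all genes tested. Their median difference was 0.37, against -0.01 over all genes tested. This median is the value of a gene whose samples overlapped between the genotypes. The gene past the threshold, *Igfbp5*, had 7.94, 7.80 and 3.10 FPKM in Ctrl and 20.9, 27.5 and 17.7 in cKO. All its cKO samples were above all its Ctrl samples. Its ratio of means was 3.50 and its difference 1.72 (SE 0.330, limma adjusted p = 0.379). It was past the unadjusted threshold in all 15 alternatives, of which the median-of-ratios scaling could only repeat the main fit. *Igfbp5* is also expressed by stromal cells, whose marker sums overlapped between the groups but were highest in cKO replicates 2 and 3 (39.4 and 39.7, against 7.96 to 15.9 in the other 4 samples). The part of these cells in the *Igfbp5* difference was not tested. *Igfbp7* had the highest level of the binding proteins, at 186 ± 17.9 FPKM (SD, n = 3) in Ctrl islets and 215 ± 38.5 (SD, n = 3) in cKO.

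Of the 8 tested docking and adaptor genes, 0 passed in either direction, and *Shc1*, the adaptor to the Ras route, had the highest level at 30.8 ± 5.76 FPKM (SD, n = 3) in Ctrl islets and 27.6 ± 1.11 (SD, n = 3) in cKO. Negative regulators act on receptors, IRS proteins and the lipids that PI3K makes. *Socs1*, which targets IRS proteins and cytokine receptors for breakdown or inhibition, was at 2.07, 1.25 and 1.20 FPKM in Ctrl and 0.587, 0.989 and 0.856 in cKO. Its difference of -0.46 (SE 0.175, limma adjusted p = 0.645) was -0.30 without Ctrl replicate 1, the sample rich in leukocyte markers, no longer past the unadjusted threshold (limma adjusted p = 0.509). It was also lost without cKO replicate 1 or 3. *Ptprf*, a receptor phosphatase, had the highest level of this group, at 42.1 ± 11.3 FPKM (SD, n = 3) in Ctrl islets and 36.8 ± 4.11 (SD, n = 3) in cKO.

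Among 14 Akt substrates and mTORC1 genes, 1 was higher and 0 lower. *Tbc1d4* (AS160), the Rab GTPase-activating protein through which Akt releases GLUT4 vesicles in muscle and fat, was at 1.62, 1.20 and 1.57 FPKM in Ctrl and 2.29, 2.17 and 2.10 in cKO. The groups did not overlap, and the difference was 0.37 (SE 0.119, limma adjusted p = 0.553), lost from the unadjusted threshold without Ctrl replicate 2 or cKO replicate 1, with 0.29 at its smallest. *Gsk3a*, a kinase that Akt inhibits, had the highest level of this group and a narrow spread, at 18.8 ± 0.303 FPKM (SD, n = 3) in Ctrl islets and 20.1 ± 0.471 (SD, n = 3) in cKO. Its samples did not overlap, and its difference of 0.09 (SE 0.0684) did not pass the unadjusted threshold (limma adjusted p = 0.820).

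**Figure D3:**
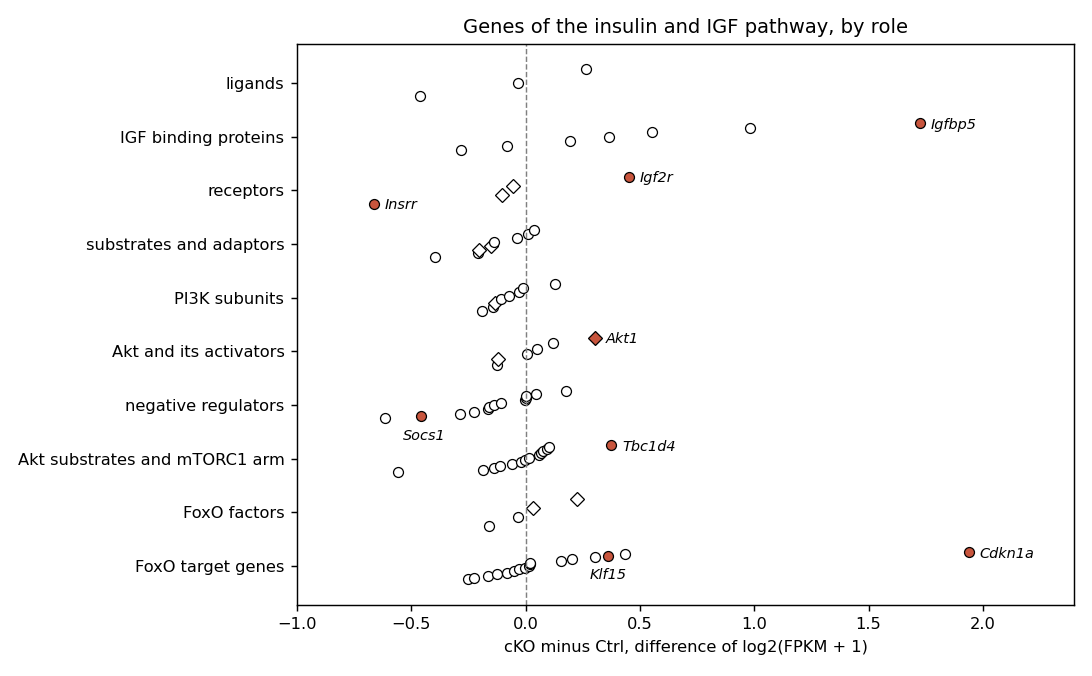
Difference between genotypes, cKO minus Ctrl on the log2(FPKM + 1) scale (x axis), for the tested genes of the pathway that are reported here, grouped by role (y axis), with diamonds for the 9 genes described first and filled, labelled symbols for genes with an unadjusted limma p under 0.05. *Cdkn1a* at 1.94 and *Igfbp5* at 1.72 lie far to the right, and the diamonds lie between -0.21 and 0.30.

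Of the 9 genes, 4 spanned at least 0.5 on the log2(FPKM + 1) scale over the 6 samples, namely *Irs1*, *Irs2*, *Akt2* and *Foxo3*. For these, the genes with the most similar pattern were taken by the root mean square difference of centred log2 values over the 6 samples, among 13362 genes whose mean FPKM was 1 or more. The values were not scaled to a common spread, so a member that varies more has fewer genes within a fixed distance. The spans were 0.90 for *Irs2*, 0.71 for *Foxo3*, 0.53 for *Irs1* and 0.52 for *Akt2*, and the counts below rise in that order. They therefore do not show how particular a pattern is. *Irs2* had 2 genes within 0.1, *Gm13339* at 0.0342 and *Elf3* at 0.0791, before *Phactr4* at 0.106. *Foxo3* had 51 genes within 0.1, and the nearest with a symbol were *Txnrd2* at 0.0449 and *Lnx1* at 0.0514. *Irs1* had 367 such genes, led by *Micall1*, *Rsad1* and *Nr6a1*, and *Akt2* had 448, led by *Fbxl17*, *Syde2* and *Eml2*. With 6 samples of shared depth and tissue, such likeness is a description only.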

How the data were processed

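Total RNA was extracted from isolated islets with TRIzol, and libraries were made with a SMARTER mRNA kit. The authors deposited the values as FPKM, 1 column per sample with replicates kept apart, and compared the genotypes with DESeq2. The submitters' processing notes name GRCm38 and mm10. The aligner, counter and annotation are not given in the sources used here, but gene coordinates and exon lengths of all 9 genes equalled those of GENCODE M21. Each FPKM corresponded to a whole number of reads (100% of values of up to 10000 reads, tolerance 0.05). The median-of-ratios factor of the deposited values was 1 in every sample, so this scaling was already in them. As an alternative it could only repeat the main fit. The reads on genes were 16289411 to 17944775 per sample, and counting error was at most 9.05% for *Irs1* and 4.01% for the other 8 genes.

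The genotypes were compared on log2(FPKM + 1) with limma 3.58.1 in R 4.3.3, by a two-sided moderated test with a mean-variance trend and Benjamini-Hochberg adjustment over the 21211 genes whose mean FPKM was 0.1 or more. The main test used the FPKM as deposited, and a voom fit of the recovered reads was an alternative. Ratios were compared by exact two-sided permutation tests. Tables were made with Python 3.11.15 and scipy 1.17.1, and figures with matplotlib 3.10.9. The code was tested on simulated data.

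Samples were grouped by the labels. The labels do not say that samples are separate animals, so p-values measure only the spread between these samples, which may be technical. The members and gene lists were chosen with earlier results of these data known. Named genes are the 9 members, *Parn*, the pathway genes with an unadjusted p under 0.05, the gene with the highest mean FPKM per role, and the 3 genes most like each member that spans 0.5 or more. *Irs4*, the antisense and microRNA neighbours, the genes high in Ctrl replicate 1 and the shares within the receptor family were added after their values were seen. There were 14 alternatives listed in advance, and 1, scaling to the reads on genes, was chosen after seeing the data. Some genes that were tested are counted in the lists but not reported here. The promoter windows are from RefSeq (GRCm38.p6).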

Additional observations from a re-analysis of the deposited data

How the results depend on the processing

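Of 318 recomputed values, 285 kept their direction and their side of the threshold, or stayed within 1.5 times for a count. Those from the median-of-ratios scaling are among them and could only equal the main values. *Akt1* kept both in all its alternatives. *Insr* turned to 0.013 with scaling to the reads on genes (chosen after seeing the data). Leaving out 1 sample gave -0.12 to 0.045 for *Insr*, -0.40 to 0.048 for *Irs2*, -0.0050 to 0.10 for *Foxo1*, -0.016 to 0.13 for the log2 *Insr* to *Igf1r* ratio, and -0.27 to -0.0066 for *Akt2*, which passed without Ctrl replicate 1 alone. Under the same omissions the 9 genes had 0 to 1 lower, all genes 0 to 10 higher and 0 to 4 lower at an adjusted p under 0.05, and 683 to 1231 higher and 401 to 1142 lower at an unadjusted p under 0.05, against 919 and 651. The adjusted calls came without Ctrl replicate 1. Pathway genes ran from 2 to 7 higher and 0 to 6 lower, and FoxO targets from 1 to 4 higher and 0 to 1 lower. Scaling to the reads on genes gave 1404 genes higher and 377 lower (78.8% higher, against 58.5%), with a median shift of 0.06, and 1 pathway gene lower. With no filter, and with a filter at a mean FPKM of 1, 1 pathway gene was lower. FoxO targets had 1 lower with no filter and with limma's voom on the reads. Same-numbered samples did not deviate together (r = -0.205, -0.0369 and -0.0894), and a fit with the replicate block gave 0 lower pathway genes and changed the calls of none of the 9. The cause of these shifts was not tested. Counting error was at most 9.05% for *Irs1*, the highest of the 9 genes, and 3 samples a group leave intervals that span both directions for 8 of the 9 genes.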

Other observations

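As shares of the summed FPKM of *Insr*, *Igf1r* and *Insrr*, a measure chosen after the values were seen, *Insrr* made up 92.4% ± 1.29 (SD, n = 3) in Ctrl islets and 89.2% ± 0.570 (SD, n = 3) in cKO. *Igf1r* made up 4.07% ± 0.525 and 5.69% ± 0.0940, and *Insr* 3.54% ± 0.779 and 5.13% ± 0.491 (SD, n = 3 each). The groups did not overlap in any of the 3 shares, which sum to 100%, and the exact permutation p of each was 0.1, unadjusted over the 16 shares of 5 families that were computed. In 5 of the 86 tested genes of the pathway (5.81%), Ctrl replicate 1 had more than 2 times the level of every other sample, beside 4.64% of all genes tested, and no other sample had such a gene. These were *Igfbp2*, *Sh2b2*, *Pik3cd*, *Enpp1* and *Bcl6*, and none of the 9 genes was among them.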
